A study of Mus musculus with 6 samples.

Results

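Of the 3292 target peaks listed for the series, 222 (6.74%, exact Clopper-Pearson interval 5.91 to 7.65) lay outside the ordinary location of an AGO2 peak, the span of exactly 1 nuclear protein-coding gene. They were chosen by the midpoint of each peak on the mm10 build, set against the gene spans of the RefSeq annotation of GRCm38.p6, which is the same assembly. Where at least 2 protein-coding genes shared the midpoint, the peak was counted under overlapping genes, with 64 peaks. Another 45 peaks lay in noncoding genes or pseudogenes only, 84 lay in no annotated gene, and 29 lay on the mitochondrial chromosome. The remaining 3070 peaks, each in exactly 1 nuclear protein-coding gene, served for comparison. The RNA was bound to AGO2 in mouse embryonic stem cells whose labelled genotype is Spy3-Ago2, cultured on gelatin in medium with serum and the cytokine LIF, which holds back differentiation. All 6 libraries shared that genotype and medium: 2 target libraries and 2 miRNA libraries from the pull-down of Spy3-AGO2 with SpyCatcher3, and 2 input libraries from whole lysate. No untagged line or differentiated culture was analysed here. A single list stood for the target libraries, without a height, score or count per library, which leaves the spread between replicates unknown, and classes of peaks are described without a test. The sources used here do not say whether the input libraries were used to remove background, and a peak is therefore not shown to be an AGO2 site.

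Argonaute proteins hold a microRNA (miRNA) and pair its seed, the bases from the second to the eighth, with complementary letters in other RNAs. Such sites are best known from the 3' untranslated regions of messenger RNAs, but long noncoding RNAs and pseudogene transcripts can also carry them. A peak that lies in several genes, or in none, is hard to assign to a transcript from its position alone, and the strand of the peak is then the main further clue. The labels name a stem cell line, and of 12 genes that mark mouse embryonic stem cells, 9 had at least 1 peak in the whole list. None of 6 fibroblast or feeder cell markers and none of 6 markers of primed or differentiated cells had one. Over all 21900 protein-coding genes, 8.33% had a peak, and 6 genes are too few to read a count of 0 against that share.

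One peak outside genes sat beside the miRNAs that AGO2 of these cells held in greatest number. It spanned chr7:3218165-3218238 on the plus strand, was 74 nt wide, and ended 387 nt before the hairpin of Mir290a, the first of the miR-290/miR-295 cluster, which lies on the same strand. The plus strand hairpins Mir292, Mir291b, Mir293, Mir294 and Mir295 followed, the last starting 2572 nt from its midpoint at chr7:3220773-3220841. All but the first bases of the cluster lie within the span of Nlrp12, a minus strand gene whose nearer edge is 442 nt from the midpoint, so that the peak itself touched no annotated gene. A second peak of this kind, chr1:23273991-23274025 on the plus strand and 35 nt wide, began 1651 nt past the hairpin of Mir30a and lay before that of Mir30c-2, both also on the plus strand. Mature miRNAs of these hairpins are shown because their seeds are what AGO2 would use for pairing, with the seed in capitals (RefSeq, GRCm38.p6).
miR-290a-5p: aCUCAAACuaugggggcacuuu
miR-292a-5p: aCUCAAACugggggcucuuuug
miR-293-5p: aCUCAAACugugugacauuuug
miR-291b-5p: gAUCAAAGuggaggcccucucc
miR-294-3p: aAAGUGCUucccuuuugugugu
miR-295-3p: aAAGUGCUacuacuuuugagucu
miR-30a-5p: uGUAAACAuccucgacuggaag

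By seed these form 4 groups, since miR-290a-5p, miR-292a-5p and miR-293-5p share one seed and miR-294-3p and miR-295-3p share another. In the 2 miRNA libraries, with totals of 12562727 and 22908172 counts, miR-290a-5p took 24.1% and 23.5% of the counts. miR-292a-5p took 2.48% and 2.21%, and miR-293-5p 0.0487% and 0.0635%. Of the other seeds, miR-295-3p took 2.39% and 2.64%, miR-294-3p 0.55% and 0.485%, and miR-291b-5p 0.0619% and 0.0585%. The other arms of these hairpins were not all rarer, since miR-294-5p took 0.959% and 0.889% and miR-293-3p 0.446% in both libraries. Further miRNAs of the cluster, not printed, share these seeds. miR-291a-5p, with the seed of miR-291b-5p, took a mean of 3.43%, and miR-291a-3p, with the seed of miR-295-3p, a mean of 2.89%. The sequences printed are those of miR-290a-5p and miR-30a-5p, of arms that share a seed, and of miR-291b-5p, whose seed is matched in the peak shown next. miR-30a-5p took 0.101% and 0.0824%, far below miR-290a-5p in both libraries. No listed peak touched a hairpin of the cluster or of Mir30a, and what RNA these 2 peaks belong to was not tested.

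A single peak of the 222 could be read as sequence here, because it lay within the stretch of RefSeq promoter sequence of C330002G04Rik, a noncoding gene on the minus strand of chromosome 19. It spanned chr19:23075867-23075926 on the minus strand (GRCm38.p6), and its 60 bases read as follows from 5' to 3', with capitals on the letter group found that is complementary to the seed of an abundant miRNA.
C330002G04Rik peak: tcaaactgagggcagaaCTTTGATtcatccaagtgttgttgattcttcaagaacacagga

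The annotated gene begins at base 21 of this peak, so that 40 of the 60 bases belong to it. The letters CTTTGAT, at bases 18 to 24, cross that start and are the complement of the seed of miR-291a-5p, a miRNA of the miR-290/miR-295 cluster. The complements searched were those of the 20 most abundant miRNAs with a mature sequence at hand, which gave 16 different letter groups: GTTTGAG for miR-290a-5p, GTGCAAT for miR-92a-3p, TTGCCAA for miR-182-5p, TTTGCAC for miR-19b-3p, TGCTGCT for miR-16-5p, CTTTGAT for miR-291a-5p, AGCACTT for miR-291a-3p, GGATCCG for miR-127-3p, GTGCCAT for miR-183-5p, GCACTTT for miR-20a-5p, ACTGTGA for miR-27a-3p, TTTTGAG for miR-294-5p, GTGCCAA for miR-96-5p, TACTTGA for miR-26a-5p, GTTTGTT for miR-495-3p and GAGCCTG for miR-484 (where miRNAs share one, the most abundant is named). On the other strand of the peak 0 of the 16 were found, and no match overlapped another. Of 32851 promoter stretches of the same length and place, 0.332% held CTTTGAT and 5.66% held at least 1 of the 16. The match is a description of the letters and not a binding site.

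Median width ranged from 41 to 60 nt over the 4 locations. The 222 peaks had a median width of 50 nt (quartiles 38.25 and 67), against 59 nt (45 and 85) for the 3070 peaks in exactly 1 coding gene. Peaks in overlapping genes had a median of 60 nt, with an interval of 50 to 67 nt that holds the comparison value. In noncoding genes the median was 50 nt (interval 45 to 60), in no gene 47.5 nt (43 to 53), and on the mitochondrial chromosome 41 nt (32 to 44), against 58 to 60 nt for the comparison peaks. The interval for noncoding genes also holds the 59 nt of the comparison peaks. These intervals are binomial ones for a median at the 95% level, and they treat peaks as independent although neighbours share a transcript. At least 100 nt were reached by 13 of the 64 peaks in overlapping genes (20.3%), by 3 of 45 in noncoding genes (6.67%), by 4 of 84 in no gene (4.76%) and by 0 of 29 mitochondrial ones, against 534 of 3070 comparison peaks (17.4%, interval 16.1 to 18.8). Under 30 nt wide were 32 of the 222 (14.4%, 10.1 to 19.7), against 114 of the 3070 (3.71%, 3.07 to 4.44). The narrow ones fell mostly outside overlapping genes, with 16 in no gene, 7 in noncoding genes and 6 on the mitochondrial chromosome, and 3 in overlapping genes.

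**Figure D1:**
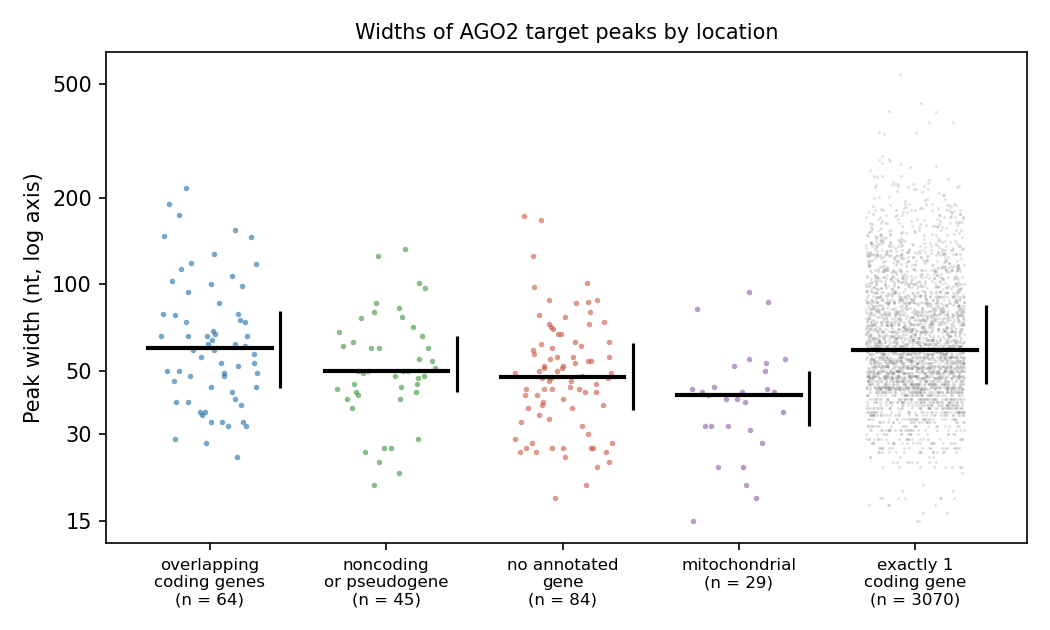
Width of every peak in nt on a log axis, by location, with 1 point per peak, the median as a horizontal bar and the quartiles as a vertical bar beside it. The medians are 60 nt for overlapping coding genes, 50 nt for noncoding genes or pseudogenes, 47.5 nt for no annotated gene and 41 nt for the mitochondrial chromosome, against 59 nt for peaks in exactly 1 coding gene.

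The widest of the 222 was a peak of 216 nt at chr7:44829827-44830042, where Nup62, which encodes a protein of the nuclear pore, overlaps Il4i1b. It was followed by 191 nt at chr18:34632410-34632600 in Cdc23 and Kif20a, and 175 nt at chr17:80398235-80398409 in Sos1 and Arhgef33. The next were 173 nt and 167 nt, both past the end of Sesn2 on chromosome 4. At the other extreme stood a peak of 15 nt at chrM:13704-13718, one of 18 nt at chrM:14300-14317 and one of 18 nt at chr2:119602151-119602168. Peaks of 20 nt lay in Rian, in CYTB and past the end of Ccdc59. The 5 widest were thus in coding genes that overlap or just past the end of one.

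In strand, peaks in no gene and on the mitochondrial chromosome stood apart from the comparison peaks. Plus strand peaks made up 33 of 64 in overlapping genes (51.6%, interval 38.7 to 64.2), 29 of 45 in noncoding genes (64.4%, 48.8 to 78.1), 28 of 84 in no gene (33.3%, 23.4 to 44.5) and all 29 mitochondrial peaks, against 1584 of 3070 comparison peaks (51.6%, 49.8 to 53.4). Peaks in no gene thus lay on the minus strand 56 times. With peaks on 1 strand within 1000 nt of each other joined into 1 locus, the share of the plus strand in no gene was 35.6% over 73 loci. In noncoding genes it was then 56.8% over 37 loci, and the interval of 48.8 to 78.1 for single peaks holds the comparison share. Joined in this way, the 222 peaks formed 165 loci, of which 23 held more than 1 peak. Another listed peak within 1000 nt on the same strand stood beside 19 of 64 peaks in overlapping genes (29.7%), 14 of 45 in noncoding genes (31.1%), 19 of 84 in no gene (22.6%) and all 29 mitochondrial peaks, against 988 of 3070 comparison peaks (32.2%).

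Set against the space that each location takes up, peaks per base were most frequent where genes overlap and sparse outside genes. Stretches shared by several coding genes cover 11.8 Mb and held 54.1 peaks per 10 Mb. Noncoding genes and pseudogenes outside coding genes cover 214 Mb and held 2.11 peaks per 10 Mb. The space between genes, 1457.3 Mb, held 0.576 peaks per 10 Mb. Stretches of exactly 1 coding gene cover 1020.2 Mb and held 30.1 peaks per 10 Mb. Each base was counted once, also where at least 2 coding genes share it. The 54.1 is therefore not a density per gene, and it does not show that a gene holds more peaks where it overlaps another. These densities take no account of which genes the cells transcribe or of exons, which the annotation table does not give. From the midpoint to the nearest edge of any annotated gene, the median distance was 797 nt in overlapping genes, 944 nt in noncoding genes, 3261 nt in no gene and 204 nt on the mitochondrial chromosome, against 2593 nt for the comparison peaks. Small genes nested in a larger one count as edges here, and overlapping spans bring edges close by definition.

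The 64 peaks in overlapping coding genes fell in 50 groups of genes, and 10 groups held 24 of the peaks. A strand was known for both genes of a pair at 48 of the peaks, from the RefSeq promoter sequences. At 42 of these, the 2 genes lay on opposite strands, so that the strand of the peak pointed to a single gene. At the other 6, both genes lay on the strand of the peak. No peak with both strands known lay opposite to both of its genes. For comparison, 2440 of 2464 peaks in exactly 1 coding gene of known strand lay on the strand of that gene (99%, interval 98.6 to 99.4).

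In 38 of these 42 peaks the pair of genes ran tail to tail, with downstream ends that overlap, in 2 the gene on the opposite strand lay inside the other, and in 2 the gene on the peak strand did. Read on the gene of the peak strand, the median peak lay 896 nt before the downstream end (quartiles 342.5 and 3377.75 nt), and 28 of the 42 (66.7%, interval 50.5 to 80.4) lay within 2000 nt of it. Read on the gene of the opposite strand, the median was 4334 nt and 16 of the 42 (38.1%) lay within 2000 nt. The gene on the peak strand had the nearer end in 30 of the 42. In peaks of exactly 1 coding gene on the gene's strand, 36.4% lay within 2000 nt of the end, with a median of 3810 nt. A tail-to-tail overlap places a peak near both ends by definition, so this nearness is a property of where the peaks were chosen and supports nothing further. Of the 32 genes on the peak strand, 8 had further peaks on that strand in their unshared part, and of the 32 genes on the opposite strand 3 had peaks of their own strand there.

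**Figure D2:**
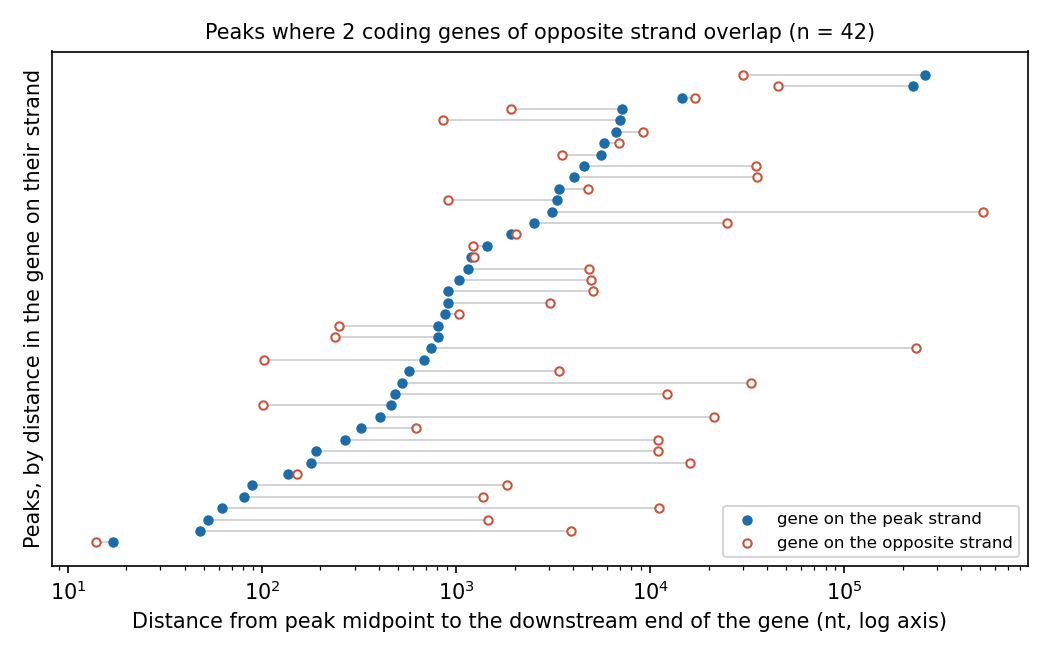
Distance in nt, on a log axis, from the midpoint of each of the 42 peaks to the downstream end of the gene on the peak strand (filled) and of the gene on the opposite strand (open), 1 row per peak, ordered by the filled points. In 30 of the 42 rows the filled point lies to the left of the open one, and the medians are 896 nt for the peak strand and 4334 nt for the opposite strand.

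Ptbp1, which encodes a repressor of splicing, and Plppr3 on the opposite strand shared the most peaks. These were 4 plus strand peaks on chromosome 10 of 53, 146, 147 and 69 nt, which lay 1921, 910, 572 and 48 nt before the end of Ptbp1. The first of them, chr10:79862488-79862540, ended 46 nt before the hairpin of Mir6910, which also lies on the plus strand in Ptbp1. Pou2f1, which encodes the transcription factor OCT1, and the T cell receptor gene Cd247 shared 3 minus strand peaks on chromosome 1, at 910, 1041 and 1157 nt before the end of Pou2f1, with widths of 57, 78 and 53 nt. Hbp1, a gene for a transcription factor with an HMG box, and the Golgi gene Cog5 shared 3 minus strand peaks on chromosome 12, at 62, 191 and 268 nt before the end of Hbp1 and at least 10910 nt before that of Cog5. In each of these 3 groups all peaks lay on 1 strand, that of the gene whose end was nearer, although at the first peak of Ptbp1 the end of Plppr3 was almost as near, at 2039 nt.

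Hspa5, which encodes the endoplasmic reticulum chaperone BiP, and Rabepk shared 2 plus strand peaks, at 882 and 89 nt before the end of Hspa5 and 1038 and 1831 nt before that of Rabepk. Fxr1, a gene for an RNA-binding protein of the fragile X family, and Dnajc19 shared 2, at 5799 and 487 nt before the end of Fxr1, and Fxr1 had 1 further peak in its unshared part. Sos1, which encodes an activator of RAS, and Arhgef33 shared 2 minus strand peaks of 75 and 175 nt, at 4056 and 4570 nt before the end of Sos1. Carm1, which encodes an arginine methyltransferase, and Yipf2 shared 2 plus strand peaks of 39 and 44 nt, opposite to the strand of Yipf2, whereas the strand of Carm1 was not in the tables used. Fam13b and Pkd2l2 shared 2 minus strand peaks of 32 and 66 nt, with neither strand known. Strand did not separate the genes at 4 groups, where both genes lie on the strand of the peaks. Of these, 2 held 2 peaks each, Nup62 with Il4i1b, whose peaks were 113 and 216 nt wide, and the RNA-binding protein gene Rbm4 with Gm21992, whose peaks were 66 and 48 nt wide. Shld3 with Trappc13 and Mbtps2 with Yy2 held 1 peak each, of 44 and 42 nt.

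The 45 peaks in noncoding genes or pseudogenes fell in 31 genes, counting at each peak the longest gene present. Long noncoding RNA genes held 37 peaks in 24 genes, pseudogenes 4 in 4 genes, a transcribed pseudogene 1, the antisense RNA gene Tsix 2, and Igl, the immunoglobulin lambda locus, 1. Of 35 peaks in a gene of known strand, 29 (82.9%, interval 66.4 to 93.4) lay on its strand and 6 on the other. The share was lower than the 99% of the comparison peaks, although pseudogenes and small RNA genes had no strand in the tables used. Its interval treats peaks as independent, although many sense peaks share a gene, while the 6 others lay in 6 genes. The 29 sense peaks lay in 16 genes at a median of 78.4% of the gene span (quartiles 45% and 94.3%), with 10 in the last 10% of the span and 2 in the first 10%. Of the 10, 5 lay in Lncenc1, 3 in Rian and 1 each in Snhg1 and Snhg15.

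**Figure D3:**
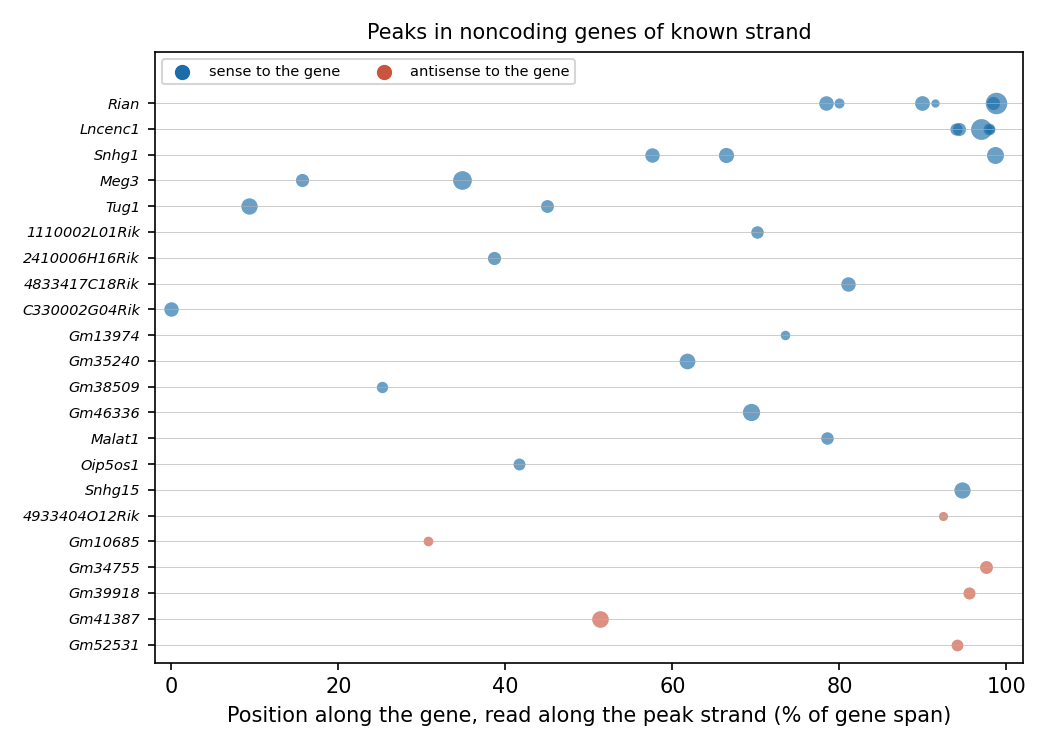
Position of each peak along its noncoding gene, in percent of the gene span read along the strand of the peak, for the genes of known strand, with 1 row per gene and point area in proportion to peak width. Sense peaks of Rian and Lncenc1 lie beyond 78% and 93% of the span, those of Tug1 and those of Meg3 outside coding genes lie before 46%, and the 6 antisense peaks are single.

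Rian, a noncoding gene of the imprinted Dlk1-Dio3 region that hosts small RNAs, had 6 peaks on its own strand. They spanned chr12:109649183-109661114, were 61, 29, 63, 20, 50 and 133 nt wide, and lay at 78.4%, 79.9%, 89.9%, 91.5%, 98.4% and 98.8% of the gene. Meg3, the noncoding gene at the start of the same region, had 2 sense peaks of 50 and 101 nt outside coding genes, at 15.6% and 34.8%. Another listed peak in Meg3, of 62 nt at 82.1% of its span, lay where the coding gene Rtl1 overlaps it and is counted with the comparison peaks. Lncenc1, a noncoding RNA of naive embryonic stem cells, had 5 sense peaks of 43, 49, 125, 40 and 22 nt, all within the last 3803 nt of a span of 62695 nt. In Rian and Lncenc1 the peaks therefore lay toward the downstream end, whereas the 3 listed in Meg3 were spread along it.

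Snhg1, which hosts small nucleolar RNAs in its introns, had 3 sense peaks of 60, 66 and 83 nt in a short gene of 2840 nt, on chromosome 19. The midpoints of 2 of them, chr19:8725094-8725153 and chr19:8725341-8725406, also lay in an annotated small nucleolar RNA gene. The third, chr19:8726245-8726327, reached 1 nt past the annotated end of the gene. Tug1 had 2 sense peaks, of 77 nt at 9.27% of the span and of 48 nt at 45%. Single sense peaks were found in Malat1, an abundant nuclear RNA, with 45 nt at 78.5% of the span, and in Oip5os1, also named Cyrano and known for a site for miR-7, with 41 nt at 41.6%. Snhg15 had 1 of 76 nt at 94.7%. Further genes with 1 sense peak each were 1110002L01Rik, 2410006H16Rik, 4833417C18Rik, C330002G04Rik, Gm13974, Gm35240, Gm38509 and Gm46336, with widths of 26 to 86 nt. Gm39715 and 2410003L11Rik, whose strand was not in the tables used, had 1 peak each, of 55 and 47 nt.

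The peaks opposite to the longest gene at their place were single ones in 6 genes. They were 40 nt wide in Gm52531, 42 nt in Gm39918, 27 nt in Gm10685, 24 nt in 4933404O12Rik, 48 nt in Gm34755 and 80 nt in Gm41387, with a median of 41 nt, against 50 nt for the 29 sense peaks. The peak in Gm41387 also lay in a pseudogene, Zfp42-ps1, whose strand was not in the tables used. On the X chromosome, 2 plus strand peaks, chrX:103464236-103464277 and chrX:103466697-103466747, lay in the shared span of Tsix and Xist. Xist, the RNA that coats the inactive X chromosome, lies on the minus strand, and Tsix is known to run opposite to it. No minus strand peak was listed in Xist.

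Some peaks carried names of pseudogenes of stem cell genes. The peak in Gm41387, chr15:93678884-93678963 on the minus strand, also lay in Zfp42-ps1, named after Zfp42, a marker gene of embryonic stem cells with 1 peak of 40 nt of its own on chromosome 8. Tdgf1-ps1 on chromosome 16 held a plus strand peak of 50 nt at 3731011 to 3731060, while Tdgf1, a Nodal co-receptor gene on chromosome 9, had 2 peaks of 132 and 77 nt. A pseudogene can share most of its letters with its source gene, and the sources used here do not say how reads that match several places were handled, so the placement of these peaks is uncertain. The same holds for the pseudogenes Gm8935, Gm15459 and Gm8730, with peaks of 54, 97 and 68 nt, for Rnls, listed as a transcribed pseudogene, with 27 nt, and for Igl with 44 nt. None of 8 annotated genes for small structured RNAs, among them Rmrp, Rpph1 and Rn7sk, held a peak. Of 27 annotated long noncoding RNA genes in the list used, 8 had at least 1 peak in the whole list, with the 2 peaks in Xist and Tsix counted for both genes. Over all annotated genes, 0.621% of 12731 long noncoding RNA genes had a peak, and 0.26% of 15366 genes that were neither these nor protein-coding. These shares count peaks irrespective of strand, also those that lie in a coding gene as well. The 0.621% stands for 79 genes, whereas the peaks outside coding genes fell in 24, counting the longest gene at each.

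The 84 peaks in no annotated gene lay a median of 3261 nt from the nearest gene (quartiles 1378 and 18633.25 nt, range 14 to 230802 nt). Within 1000 nt lay 16 of them, within 5000 nt 51 (60.7%) and within 10000 nt 56, while 5 lay beyond 100000 nt. Direction was read along the strand of the peak, so that a gene behind the peak is one that transcription in that direction would have passed. A gene lay behind within 5000 nt at 44 peaks, and ahead within 5000 nt at 12. Of the 44, the gene was on the same strand at 34, on the opposite strand at 1, and of unknown strand at 9. Of the 12 ahead, it was on the same strand at 6, on the opposite strand at 3, and of unknown strand at 3. Of the peaks in no gene, 34 of 84 (40.5%, interval 29.9 to 51.7) thus lay within 5000 nt past the annotated end of a gene on their own strand. This was the largest of the groups counted here, though it did not hold most of the 84 peaks.

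**Figure D4:**
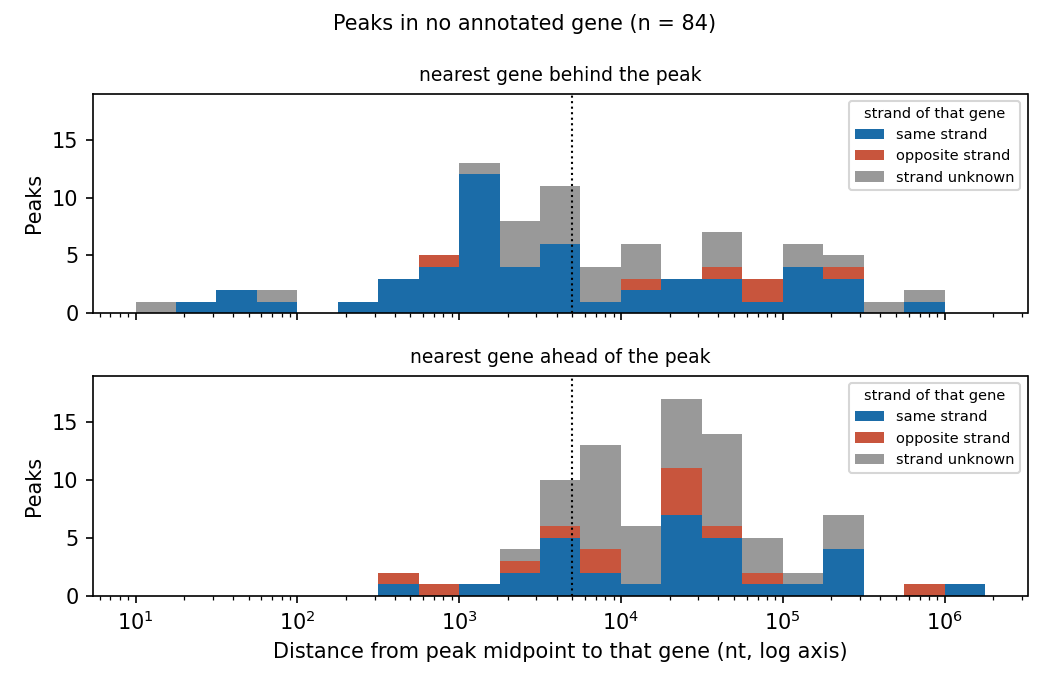
Number of the 84 peaks in no annotated gene by the distance in nt, on a log axis, from the midpoint to the nearest gene behind (top) and ahead (bottom), read along the strand of the peak and coloured by the strand of that gene, with a dotted line at 5000 nt. Behind the peak, 44 genes lie left of the line and 34 of them are on the same strand, while ahead of it 12 lie left of the line.

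These 34 peaks lay past the ends of 24 genes, 18 of them protein-coding with 27 of the peaks. Their median width was 53 nt, against 44.5 nt for the other 50 peaks in no gene, and their median distance past the end was 1397 nt. Lnpep, which encodes an aminopeptidase, had 5 such peaks on chromosome 17, at 1393, 3606, 3846, 4021 and 4565 nt past its end, with widths of 38, 98, 50, 101 and 62 nt, and no peak inside its span. Trim71, which encodes a stem cell RNA-binding protein and let-7 target, had 3 at 212, 318 and 1470 nt past its end, of 88, 47 and 70 nt, and a further 2 inside its span. Sesn2, which encodes a stress-induced inhibitor of mTORC1 signalling, had 3 at 20, 369 and 507 nt, of 167, 59 and 173 nt, and the nearest of them reached into the annotated span. Without Lnpep, Trim71 and Sesn2, each remaining gene had 1 or 2.

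Ccdc59 had peaks of 41 and 20 nt at 42 and 98 nt past its end, and Oip5os1 had peaks of 55 and 18 nt at 1333 and 1413 nt, beside the peak inside it. Polr3f, which encodes a subunit of RNA polymerase III, had 1 at 50 nt. Chrna7, Nhlrc3, Mterf2 and Kifbp had 1 each between 676 and 946 nt, Fitm2, Mars2, Ern1 and Parl 1 each between 1030 and 1473 nt, Lap3, Emb and Tex33 1 each between 1868 and 1915 nt, Acer3 1 at 2084 nt and Tram2 1 at 4247 nt. Noncoding genes with a peak past the end were Gm41396 at 1058 nt, Gm15290 at 1169 nt, 3110021A11Rik at 1401 nt, Mir30a at 1669 nt and Gm33272 on the Y chromosome at 4194 nt. Of the 24 genes, 21 had no peak on their strand inside the annotated span, the others being Trim71, Oip5os1 and Emb. A 125 nt peak, chr14:99313434-99313558, lay 84 nt past the nearest edge of Klf5, a pluripotency factor gene, whose strand was not in the tables used. Other genes of unknown strand behind a peak included Mtpap at 1312 nt, Tnks at 2328 nt, Gm2381 at 2510 nt and Gm12030 at 3215 nt. The opposite-strand gene behind a peak was Olfr924, an odorant receptor gene, at 812 nt. Whether these RNAs are continuous with the genes was not tested.

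**Figure D5:**
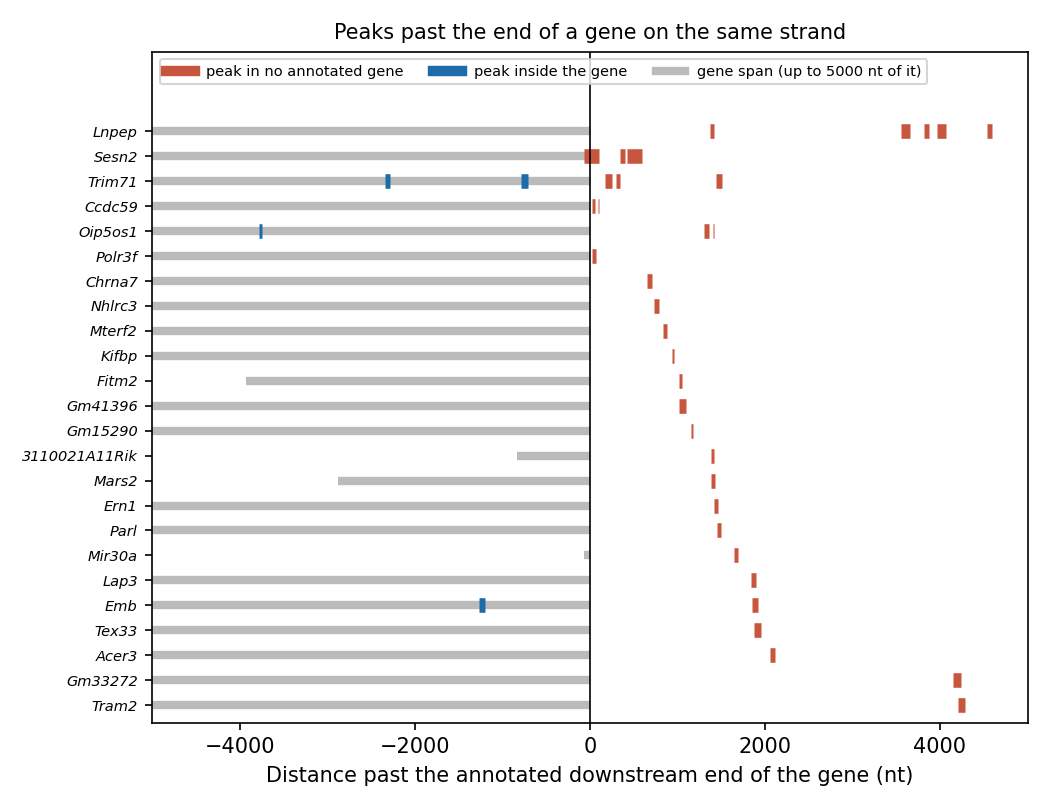
Peaks past the annotated downstream end of a gene on the same strand, for the 24 genes with such a peak within 5000 nt, with distance past the end in nt, peaks drawn to their width and the gene span in grey. Lnpep has 5 peaks past its end, Trim71 and Sesn2 have 3 each, and peaks inside the span (blue) are found in Trim71, Oip5os1 and Emb.

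Ahead of a peak and on the same strand within 5000 nt lay Mir290a at 425 nt from the midpoint, Anapc5 at 1724 nt, Ctnnal1 at 2704 nt, Ccnb1ip1 at 2774 nt, Ccr4 at 4322 nt and Mtf2 at 4699 nt. The peak before Ccr4 is also one of those past the end of Trim71. Of the other genes ahead, Sbspon, of unknown strand, lay 4488 nt from a peak on chromosome 1. Tmem263, on the opposite strand, lay 830 nt from the peak past the end of Mterf2. On chromosome 14, 3 minus strand peaks of 49, 54 and 73 nt at 50798478 to 50801921 lay between Ccnb1ip1, 2774 nt ahead of the first, and Rpph1, 5562 nt behind the last. On chromosome 7, 2 minus strand peaks of 27 nt each, at 80152726 and 80152873, lay 2228 and 2081 nt from Gm45202, whose strand was not in the tables used. A plus strand peak of 29 nt, chr17:23540986-23541014, shared 1 nt with the edge of n-TPcgg1, a proline transfer RNA gene at chr17:23540915-23540986, and its remaining bases lay outside that gene. The strand of n-TPcgg1 was not in the tables used. Another plus strand peak on chromosome 17, 51 nt wide at 39843656, lay 2673 nt from Rn18s-rs5, a pseudogene named after 18S ribosomal RNA.

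Far from genes, the peaks were narrow. The 28 peaks beyond 10000 nt had a median width of 42.5 nt (quartiles 28 and 49.75, highest 78), against 50 nt for the 51 peaks within 5000 nt and 59 nt for peaks in exactly 1 coding gene. On strand, 19 of the 28 were minus and 9 plus, and of the 51 within 5000 nt, 32 were minus and 19 plus. The 3 farthest from any gene were a 28 nt peak at chr10:35477876-35477903, 230802 nt from Amd2, a 67 nt peak at chr2:63740973-63741039, 165718 nt from Gm8541, and a 46 nt peak at chr2:63822259-63822304, 149227 nt from Fign. The last 2 were among 4 minus strand peaks of 67, 46, 45 and 42 nt in the stretch chr2:63740973-63876940, all of them past the downstream end of Fign, a minus strand gene with no peak in its span, at 230502, 149227, 148789 and 94589 nt. Of the 5 peaks beyond 100000 nt, 3 belong to this stretch.

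The 29 mitochondrial peaks were all on the plus strand and together covered 1234 nt. They lay in 7 of the 13 protein-coding genes, which make parts of the respiratory chain, and 28 of the 29 lay in such a gene. ND5 held 9, ND1 and ND4 5 each, ND2 and CYTB 3 each, ND6 2 and COX1 1. Per length, ND1 held 5.22 peaks per kb and ND5 4.93, against 2.62 for CYTB and 0.647 for COX1. No peak had its midpoint in any of the 2 ribosomal RNA genes or the 22 transfer RNA genes, and 6 coding genes, COX2, ATP8, ATP6, COX3, ND3 and ND4L, had none. The 2 peaks in the span of ND6, of 15 and 41 nt, lay on the plus strand, although ND6 is known as the mitochondrial coding gene of the other strand. The remaining peak, chrM:16019-16054, lay past the last annotated gene, which ends at 15422, in the control region that holds the start sites of mitochondrial transcription. Gaps between neighbouring peaks had a median of 135 nt and were under 100 nt in 11 of 28 cases.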

How the data were processed

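The authors deposited a peak list for the whole series, with a position and strand per peak on mm10 and a score of 0 for every peak, and for each miRNA library a table of raw counts by mature miRNA. The sources used here do not give the peak caller, its threshold or the handling of replicates, and a stricter or looser one would alter the counts of peaks. Per the submitters' processing notes, deepTools 3.1.3, Bowtie2 2.4.2, STAR 2.5.2a, cutadapt 2.10, DESeq2 1.36.0 and UMI-tools were used, in roles not stated. DESeq2 was not run here.

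Peaks were placed by midpoint among 49997 RefSeq gene spans, irrespective of strand. Gene strands came from the RefSeq promoter and miRNA tables, which held one for 79.9% of the 21900 coding genes, and no exons were used. Distances are in nt, coordinates count from 1, and intervals are exact Clopper-Pearson intervals at 95%, covering counting error only. Loci joined peaks of 1 strand over gaps of at most 1000 nt. Classes were recovered for 100% of 500 simulated peaks on chromosome 19. These were drawn from the same gene spans, so the result checks the code only and not the placement of real peaks. Python 3.11.15, numpy 2.4.6, pandas 2.3.3, scipy 1.17.1 and matplotlib 3.10.9 were used. Alternatives for the placement, the loci, the widths and the distances were tried.

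The 222 peaks and the lists were chosen with earlier results of these data known. Names follow a rule: every noncoding or mitochondrial gene with a peak, gene groups with at least 2 peaks, genes near peaks outside genes, the peaks farthest from genes, and the widest and narrowest peaks. Mir6910, Mir30c-2, Nlrp12 and the source genes of pseudogenes were added after their positions were seen, and 1 gene that the rule names is not reported here.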

Additional observations from a re-analysis of the deposited data

How the results depend on the processing

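No paired analysis was possible because the peak list has no value per library, and for the same reason no replicate could be left out. Of 45 comparisons of a result with an alternative, 38 stayed within 1.5 times the count or inside the interval of the value. Some of the 38 could not move, because mitochondrial peaks were placed by chromosome at every setting and all lay on the plus strand. Leaving out genes known to lie on the opposite strand left 16 peaks in overlapping genes instead of 64, since 48 then had a single gene. It raised those in no gene to 109. Joining peaks within 1000 nt left 2 mitochondrial loci in place of 29 peaks, and taking the widest peak of each locus moved the median width to 73 nt on the mitochondrial chromosome (2 loci) and to 61 nt in exactly 1 coding gene. The median distance of peaks in no gene was 6692.5 nt to the nearest coding gene and 20951 nt to the gene ahead, against 3261 nt to any gene. Within 1000 nt past a gene end on the same strand lay 12 peaks, against 34 within 5000 nt and 35 within 10000 nt. Without predicted gene names, 58 peaks lay in overlapping genes, 34 in noncoding genes and 101 in none. Gene strands were missing for part of the annotation, and genes without one were kept in this count. The 16 is therefore a maximum, since 7 of these peaks had no gene of known strand and 3 had 1. Counts of peaks on the same or the opposite strand of a gene are minimum counts.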

Other observations

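The names of the peaks are running numbers in order of chromosome, strand and position, and the listed numbers reach 30438, so gaps count numbers that the list does not hold. On the mitochondrial chromosome the list held 29 of the 78 numbers from 30361 to 30438 (37.2%), or 26.9% of the 108 numbers after the last one of the Y chromosome, against 10.8% of 30330 nuclear numbers. Outside coding genes, Rian held 6 listed peaks over 16 numbers, Lncenc1 5 over 13, Snhg1 3 over 7, and Meg3 2 over 7. Each of these ranges begins and ends on a listed peak, which raises the share by construction. They are therefore not comparable with the 10.8%. The sources used here do not say what the numbers left out stand for.

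Among the 3070 peaks in exactly 1 coding gene, 24 lay on the strand opposite to a gene of known strand. With genes known to lie on the opposite strand left out, 20 of them lay in no gene and 4 in noncoding genes.

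Placing peaks by any shared nucleotide moved a few. The peak past the end of Sesn2 at chr4:132492701-132492867 then counted inside that gene, and the one at the edge of n-TPcgg1 counted in a transfer RNA gene.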
